A study of Mus musculus with 8 samples.

Results

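The endothelin genes of the mouse tongue bud were examined in embryos that lack the TGF-beta receptor Alk5 in neural crest cells, and in their controls. They comprise the ligands Edn1, Edn2 and Edn3, the receptors Ednra and Ednrb and the converting enzymes Ece1 and Ece2. Members were the probe sets (groups of short oligonucleotides that read 1 transcript) whose annotation names exactly 1 of these 7 genes. This rule gave 14 probe sets for 6 genes, of 34945 probe sets naming 1 gene and 18193 genes on the array. Ednra was not analysed here, because none of these probe sets names it alone.

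Mutant embryos carried Wnt1-Cre together with Alk5 fl/fl, and control embryos carried Alk5 fl/fl without Cre. Wnt1-Cre is a transgene whose Cre recombinase acts in neural crest cells, so that cells of other origin in the mutant bud keep the receptor. All embryos were C57BL/6J and of embryonic day 13.5, and RNA of the whole tongue bud was hybridised to 4 arrays per group. Their sex was not determined, beyond the Y-linked readings given below. With no embryos that carry Cre alone, the transgene itself and the loss of Alk5 cannot be told apart. The labels do not say whether the buds of a group came from separate litters. The p-values measure only the spread between these samples, and the number of arrays limits the precision.

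Endothelins are short peptides cut from larger precursors, first by furin-like proteases and then by the converting enzymes Ece1 and Ece2. They act on G protein-coupled receptors: Ednra prefers the products of Edn1 and Edn2, while Ednrb binds the peptides of each ligand gene about equally. In mouse embryos, Edn1 from the epithelium and endothelium of the pharyngeal arches acts through Ednra on neural crest cells to set the identity of the lower jaw. Edn3 and Ednrb are needed for crest-derived melanocytes and enteric neurons, and mice without them have coat spotting and an aganglionic colon.

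The arrays resembled each other. Expression is given as the authors' log2 value per probe set, on which a difference of 1 is a doubling, and changes are compared within a probe set. Levels of different probe sets are set side by side only to show which readings are dim. Array medians ran from 5.96 to 6.01, and Pearson correlations across probe sets were 0.994 to 0.998 among mutants, 0.991 to 0.996 among controls and 0.988 to 0.996 between the groups. Control 3 had a mean of 3.09 over the Y-linked genes Eif2s3y, Kdm5d and Uty, against 8.44 or more on the other 7 arrays. By these genes control 3 reads as female and the other 7 as male. Control 1 lay farthest along the second principal component, which held 26.7% of the variance, with a score of -33.1 against -18.7 to 26.9 on the others. On the first principal component, which held 40.5% of the variance, scores ran from -30.8 in mutant 3 to 37.0 in control 4. Calls were also made without controls 1 and 3 together, and with each array left out in turn. The targeted gene, Tgfbr1 (the symbol of Alk5), was higher in mutants on each of its 3 probe sets (by 0.39, 0.52 and 0.82). Whether the probes lie in the deleted exons is unknown here, so these values check neither deletion nor labels. Markers of the labelled tissue were bright, with per-array means of 9.97 to 10.1 in mutants and 9.98 to 10.11 in controls over 9 mesenchyme genes. Over 12 epithelial genes they were 9.12 to 9.56 in mutants and 9.38 to 9.62 in controls. Over 8 skeletal muscle genes they were 10.63 to 10.93 in mutants and 11.34 to 11.58 in controls.

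Ednrb, the receptor for each of the endothelins, was the endothelin gene that fell in mutants. Its level dropped to about 50.1% of control on the brightest probe set and 58.2% on another, with little scatter within either group. In RNA of a whole bud, fewer cells of a type and less RNA per cell cannot be told apart. The ligands and converting enzymes passed in neither direction. Of the 14 member probe sets, 2 were called at an adjusted p of 0.05 in limma, against 5.94% of all probe sets, and both read Ednrb. Calls over all probe sets were higher in mutants for 2.69% and lower for 3.25%. Read by gene at the brightest probe set, 1 of 6 members was called, against 7.51% of all genes, and 2 of the 6 genes (Ednrb and Ece1) had groups that did not overlap, against 17.8% of all genes. The median log2 change over the 6 genes was -0.00, beside -0.01 over all genes.

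The promoters of the receptor that fell and of a pair of ligands that act on it are shown here. The ligand Edn3 is the one that genetics ties to Ednrb, and Edn1 is the one that acts on the lower jaw. Each is the RefSeq sequence of build GRCm38.p6 from 250 bases before to 50 bases after an annotated transcript start, written 5′ to 3′ on the gene's strand. The Ednrb window lies inside the annotated span of the gene, which reaches 103844508, and so does not cover its outer end. Capitals mark matches to any of 5 motifs searched on both strands.
Ednrb, chr14:103843652-103843951, minus strand: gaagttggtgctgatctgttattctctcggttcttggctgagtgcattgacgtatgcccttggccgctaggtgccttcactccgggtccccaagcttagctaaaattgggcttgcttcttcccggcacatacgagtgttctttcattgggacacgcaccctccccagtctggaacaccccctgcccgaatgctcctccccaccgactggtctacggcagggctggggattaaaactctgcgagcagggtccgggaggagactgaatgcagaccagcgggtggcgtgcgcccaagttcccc
Edn3, chr2:174760369-174760668, plus strand: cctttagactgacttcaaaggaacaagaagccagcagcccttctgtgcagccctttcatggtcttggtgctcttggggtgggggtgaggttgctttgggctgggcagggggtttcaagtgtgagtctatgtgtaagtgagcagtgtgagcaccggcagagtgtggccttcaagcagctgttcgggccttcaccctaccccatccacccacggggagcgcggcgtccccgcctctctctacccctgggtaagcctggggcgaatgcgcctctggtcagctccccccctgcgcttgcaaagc
Edn1, chr13:42301226-42301525, plus strand: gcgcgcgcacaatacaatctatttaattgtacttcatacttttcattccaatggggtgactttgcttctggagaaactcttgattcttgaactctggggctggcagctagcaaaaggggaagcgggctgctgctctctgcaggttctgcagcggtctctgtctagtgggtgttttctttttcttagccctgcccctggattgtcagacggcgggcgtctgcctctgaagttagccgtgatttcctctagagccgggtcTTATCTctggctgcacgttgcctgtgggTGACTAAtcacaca
The motifs were the letters CAGACA of a SMAD box, TGACTAA of an AP-1 element, TTATCT of a GATA factor element, ACAAAG of a SOX element and GGGCGG of a GC box, and no matches overlap in these windows. Of these 3, only the Edn1 window held any of these letters, a GATA element at position 9 and an AP-1 element at position 37 counted from the transcript start. Among 32851 RefSeq promoter windows of 300 bases, 21.0% hold the SMAD box, 2.35% the AP-1 element, 11.2% the GATA element, 18.7% the SOX element and 35.7% the GC box. The windows of Ednrb and Edn3 hold none of the 5, which describes these letters in these windows only. Other forms of each element were not searched, and how the letters were chosen is not given here. The matches therefore do not set Edn1 apart from Ednrb and Edn3. Their GC content is 58.7% and 61.0%, and that of Edn1 is 51.3%.

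On probe set 1437347_at, Ednrb had log2 values of 9.64, 9.73, 9.55 and 9.65 in mutants 1 to 4, against 10.64, 10.72, 10.54 and 10.66 in controls 1 to 4. The 4 mutant values lay within a narrow band far below the 4 control values, with no overlap. The means were 9.64 ± 0.0716 in mutants and 10.64 ± 0.0729 in controls (SD, n = 4 each). The log2 change of -1.00 (SE 0.0591, 95% confidence interval -1.13 to -0.86) left mutants at 50.1% of control (interval 45.6% to 54.9%), with an adjusted p of 0.000115 in limma. Among 18193 genes, 84, with Ednrb counted among them, were called with a fall at least as large on their brightest probe set.

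The second Ednrb probe set to pass, 1426314_at, read 7.01, 6.89, 7.01 and 7.02 in mutants 1 to 4, against 7.78, 7.82, 7.66 and 7.80 in controls 1 to 4. The groups were again apart, and their scatter was small. Its log2 change was -0.78 (SE 0.0571, adjusted p = 0.000255 in limma), or 58.2% of control (interval 53.2% to 63.6%). Both calls held in each fit that left out 1 array, where the change ran from -1.03 to -0.97 on 1437347_at and from -0.82 to -0.75 on 1426314_at. Without controls 1 and 3 together they were -1.05 and -0.83, and both passed.

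The remaining Ednrb probe set, 1423594_a_at, varied widely and did not pass. It read 6.26, 6.72, 7.54 and 7.35 in mutants 1 to 4, against 9.15, 8.40, 7.19 and 6.95 in controls 1 to 4. Controls 3 and 4 lay within the range of the mutants, while controls 1 and 2 lay above it. Its mean difference of -0.96 was close to that of 1437347_at, but its SE was 0.486 (adjusted p = 0.324 in limma, 95% confidence interval -2.06 to 0.14). With 1 array left out the difference ran from -1.28 to -0.55, the smallest of these without control 1.

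The scatter of 1423594_a_at followed that of Malat1, a nuclear long non-coding RNA. Malat1 read 7.58, 8.28, 9.80 and 9.24 in mutants 1 to 4, against 9.73, 9.02, 7.49 and 7.11 in controls 1 to 4, so that both were high on controls 1 and 2 and low on mutants 1 and 2 within their groups. Taking each array's deviation from its group mean, Pearson's r between 1423594_a_at and Malat1 was 0.98 over 8 arrays (Spearman's rho 0.98), and 0.98 over the 6 arrays left without controls 3 and 4, the farthest from the median of Malat1. The same r was -0.05 for 1437347_at and 0.35 for 1426314_at. With the Malat1 value as a covariate, a fit chosen after seeing these values, 1423594_a_at changed by -1.25 and passed (adjusted p = 0.000351 in limma). In that fit 1437347_at changed by -1.00 and 1426314_at by -0.79. On the first principal component, mutants 1 to 4 scored 4.23, -7.93, -30.8 and -26.1. The scores of controls 1 to 4 were -8.01, 8.49, 23.2 and 37.0. Within each group, Malat1 and 1423594_a_at each ordered the arrays in reverse of these scores, so the resemblance is not particular to Malat1. What this probe set, Malat1 and that component follow was not tested.

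**Figure D1:**
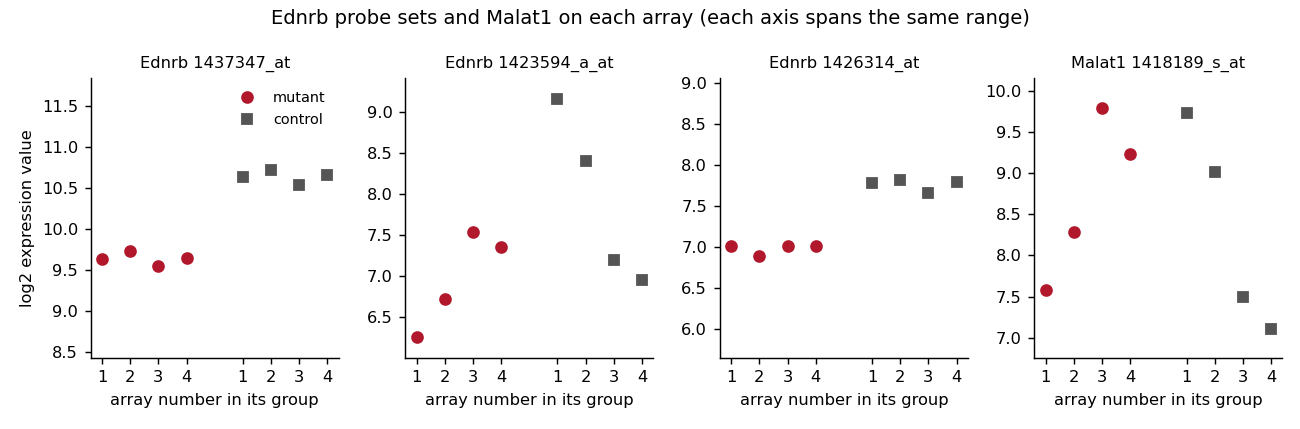
Log2 expression value (vertical axis, each spanning the same range) of the 3 Ednrb probe sets and of Malat1 on mutant arrays 1 to 4 (circles) and control arrays 1 to 4 (squares); each point is 1 array. On 1437347_at the mutants sit at 9.55 to 9.73 and the controls at 10.54 to 10.72, while 1423594_a_at overlaps between the groups and varies with Malat1.

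Ednrb was also set beside Sox10 and the markers of some cell types. The within-array difference of Ednrb (1437347_at) and each gene or list mean was taken, in comparisons chosen after the values were seen. The endothelial, mesenchyme and epithelial lists, with median changes of 0.29, 0.02 and -0.16, were not among these comparisons. Sox10, the transcription factor of crest-derived glial and melanocyte precursors, had log2 values of 7.61, 7.47, 7.46 and 7.43 in mutants, against 7.73, 8.06, 7.80 and 7.79 in controls. Its log2 change was -0.35, and -0.13 (not called) with the mean of its probe sets. The difference Ednrb minus Sox10 changed by -0.65 between mutants and controls. The corresponding change was -0.62 against the mean of 11 Schwann cell and crest-derived neuron markers, -0.81 against 10 smooth muscle and pericyte markers and -0.32 against 8 skeletal muscle markers. These list means changed by -0.38, -0.18 and -0.68 in the same order. Single markers of these lists had changes larger in size than that of Ednrb: Tubb3 changed by -1.38, Tnnt3 by -1.23 and Acta1 by -1.03. Against 10 melanoblast markers the change was -0.95. The mean of these markers changed by -0.05, with 8 of the 10 below 0 and Kit higher by 0.51. It rests largely on dim probe sets such as those of Tyr and Mlana and says nothing of those cells. No p is given for these differences, because Ednrb was taken up after its fall was seen. What part the number of cells has in the fall of Ednrb was not tested.

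**Figure D2:**
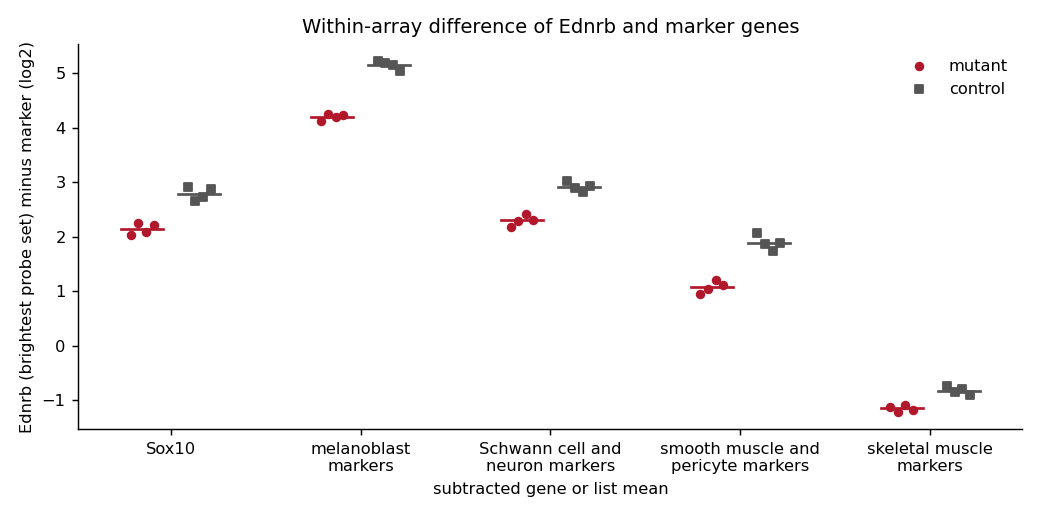
Within-array difference of the log2 values of Ednrb (1437347_at) and Sox10 or the mean of a marker list (vertical axis), for each subtracted gene or list (horizontal axis) on 4 mutant arrays (circles) and 4 control arrays (squares), with lines at group means. The group means differ by 0.32 for skeletal muscle markers to 0.95 for melanoblast markers, many of them dim, and are shown with no test.

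Among the ligands, Edn3, the partner of Ednrb in melanocyte and enteric nerve development, was read by 4 probe sets. The brightest, 1438696_at, had log2 values of 9.35, 9.18, 9.14 and 9.26 in mutants 1 to 4, against 8.57, 9.11, 9.16 and 8.98 in controls 1 to 4. The groups overlapped narrowly, with control 1 low and control 3 inside the range of the mutants. The mean was 9.23 ± 0.0921 in mutants and 8.95 ± 0.27 in controls (SD, n = 4 each), a difference of 0.28 that did not pass (adjusted p = 0.259 in limma, 95% confidence interval -0.00 to 0.56). Without control 1 it was 0.15. The other 3 probe sets differed by 0.14, 0.18 and 0.21, with overlapping groups and adjusted p-values of 0.620, 0.364 and 0.368 in limma, so the 4 estimates for Edn3 were all above 0 and none passed.

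Edn1, the ligand that patterns the lower jaw, had 1 probe set, 1451924_a_at. It read 6.62, 6.15, 6.58 and 6.44 in mutants 1 to 4, against 6.40, 6.42, 6.41 and 6.40 in controls 1 to 4. The control values were nearly identical, the mutant values spread to both sides of them, and the mean difference was 0.04 (adjusted p = 0.871 in limma). The 95% confidence interval of the reading was -0.18 to 0.26. Edn2, best known from the ovary and gut, had log2 values of 5.17, 5.60, 5.59 and 5.68 in mutants 1 to 4 on 1449161_at, against 5.67, 5.49, 5.55 and 5.77 in controls 1 to 4. The groups overlapped, and the difference of -0.11 did not pass (adjusted p = 0.65 in limma, interval -0.37 to 0.14). No detection call came with the values. The brightest probe sets of 11 genes of organs outside the bud averaged 3.13 to 7.47. The highest were Ins2, at 7.39 in mutants and 7.55 in controls, and Prm1, at 6.69 in mutants and 6.81 in controls. Prm2 followed at 5.60 in mutants and 5.54 in controls, and the other 8 averaged less. The readings of Edn2 lay near that of Prm2, while those of Edn1 lay above 9 of the 11 and below Prm1 and Ins2. The range also holds the mutant mean of 6.98 on Ednrb 1426314_at. Probe sets differ in their own background, so whether Edn1 and Edn2 were above it was not settled. None of these 11 genes was called.

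The converting enzyme Ece1, a membrane protease that releases active endothelin, was read by 3 probe sets that pointed in different directions. On the brightest, 1455741_a_at, the values were 9.29, 9.36, 9.35 and 9.39 in mutants 1 to 4, against 9.19, 9.21, 9.20 and 9.25 in controls 1 to 4. The groups did not overlap, but the gap was small. The difference of 0.14 (SE 0.0459) put mutants at 110% of control and did not pass over all probe sets (adjusted p = 0.132 in limma). Probe set 1441423_at also separated the groups, the other way, with 3.81 to 4.02 in mutants and 4.07 to 4.28 in controls, a difference of -0.20 (adjusted p = 0.144 in limma). These readings are dim, below the median level of 5.99 over all probe sets. Probe set 1434177_at differed by 0.07 with overlapping groups.

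Ece2, a converting enzyme active at acid pH and known from neurons, had 2 probe sets. The brighter, 1423358_at, read 9.02, 8.96, 8.93 and 8.89 in mutants 1 to 4, against 8.86, 8.92, 9.10 and 9.08 in controls 1 to 4, and the groups overlapped. Its difference of -0.04 had a 95% confidence interval of -0.19 to 0.11, which allows 87.5% to 108% of control. The dimmer 1424561_at differed by -0.10 (interval -0.33 to 0.14). In all, 4 of the 14 member probe sets had groups that did not overlap (2 of Ednrb and 2 of Ece1), against 14.7% of all probe sets.

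**Figure D3:**
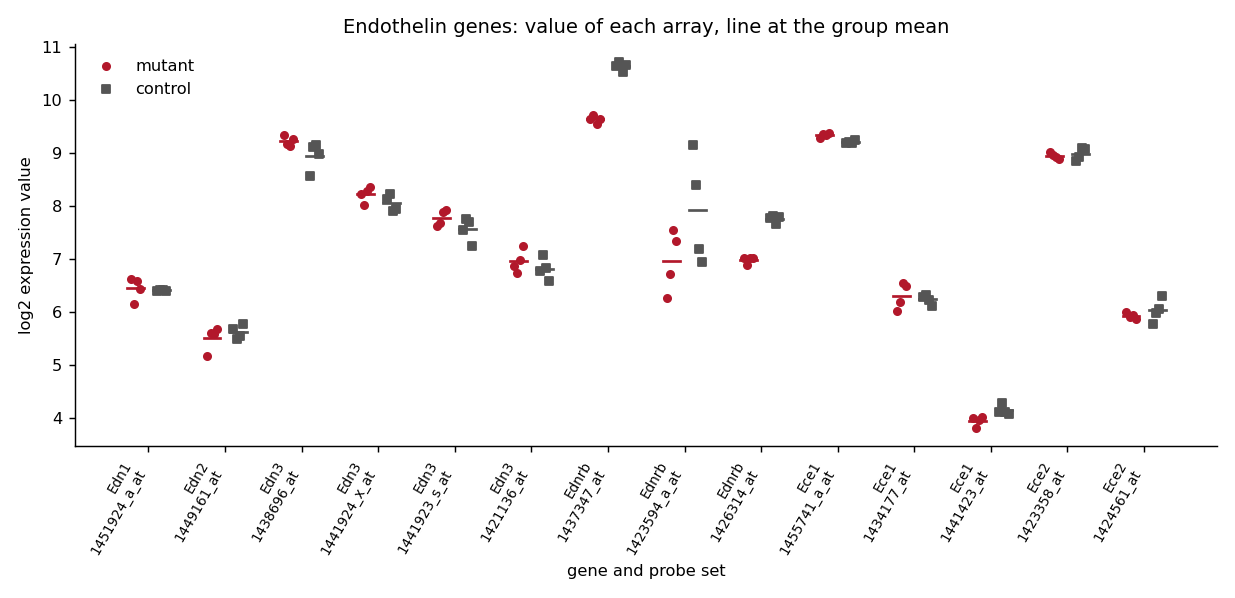
Log2 expression value (vertical axis) of the 14 endothelin probe sets (horizontal axis) on 4 mutant arrays (circles) and 4 control arrays (squares), with lines at group means. The mutant and control points of Ednrb 1437347_at and 1426314_at stand clearly apart, and those of most other probe sets overlap.

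**Figure D4:**
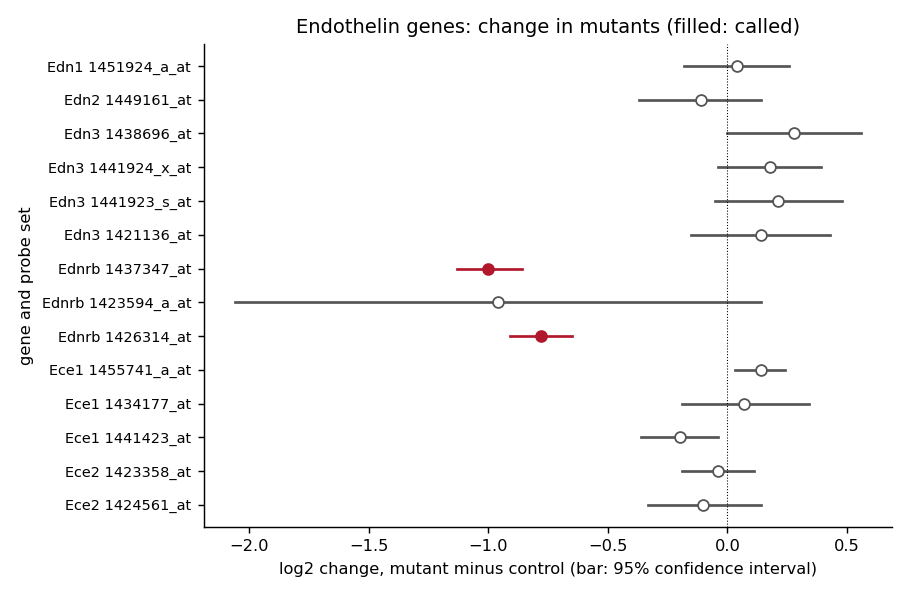
Log2 change, mutant minus control (horizontal axis), of the 14 endothelin probe sets with unadjusted 95% confidence intervals; filled points were called in limma. Ednrb 1437347_at at -1.00 and 1426314_at at -0.78 were called, and the wide interval is that of Ednrb 1423594_a_at.

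Whether paired members changed by different amounts was asked from the within-array difference of their brightest probe sets. Edn3 minus Ednrb was -0.29, -0.55, -0.41 and -0.39 in mutants 1 to 4, against -2.08, -1.61, -1.38 and -1.68 in controls 1 to 4. The mutants lay above the controls without overlap, by 1.28. The exact two-sided permutation p was 0.0286, the smallest possible, and 0.0857 after Benjamini-Hochberg adjustment over the 3 pairs tested, which does not pass. A pair that alone reaches the smallest p cannot go below 0.0857 here, so the adjusted value does not decide the question. The difference also holds the change of -1.00 in Ednrb already given. For Ece1 minus Ece2 the difference was 0.18 (exact permutation p = 0.0857, adjusted 0.129), and for Edn1 minus Edn3 it was -0.24 (exact permutation p = 0.229, adjusted 0.229). The 2 planned pairs that hold Ednra were not run.

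Ahead of the converting enzymes, precursors are cut by proprotein convertases, and neprilysin-like proteases related to Ece1 break peptides down. None of 9 such genes was called in limma, against 7.51% of all genes, and their median change was -0.05, beside -0.01 over all genes. The smallest p-values belonged to Furin, the protease that cuts pro-endothelins, at -0.20, to Mme, which encodes neprilysin, at 0.34, and to the convertases Pcsk6 at 0.16 and Pcsk7 at -0.07. Their adjusted p-values in limma were 0.152, 0.27, 0.33 and 0.569. None of the 9 passed under any of the 20 alternative settings tried.

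Behind the receptors, G proteins, phospholipase C and calcium carry the signal. Of 25 measured genes of this kind, 3 fell and 0 rose in limma, against 4.46% lower and 3.06% higher over all genes, and the median change was -0.06. Nfatc1, a transcription factor activated by calcium and calcineurin, fell by 0.90 on the log2 scale (SE 0.0985, adjusted p = 0.0015 in limma), on 1 of its 5 probe sets, and by 0.29 where the mean of its probe sets was used. Gnai1, an inhibitory G protein subunit, read 9.72, 9.88, 9.80 and 9.91 in mutants, below each of the controls, and fell by 0.61 with 2 of its 3 probe sets called. Rgs4, which shortens the signal of G proteins, fell by 0.46, with its call lost in 7 of the 8 fits that left out 1 array (-0.57 to -0.39). With the mean of its probe sets it was -0.69 and passed. Its brightest probe set was dim, at 5.26 in mutants and 5.72 in controls. Nfatc4 at -0.22 did not pass (adjusted p = 0.0706 in limma). The subunits Gnaq and Gna11, through which endothelin receptors activate phospholipase C, differed by 0.01 and 0.06. The phospholipase genes Plcb1, Plcb2, Plcb3 and Plcb4 differed by -0.24, -0.13, -0.02 and -0.14. Rgs5 and Prkca differed by -0.79 and -0.32 (adjusted p = 0.12 and 0.0734 in limma). None of these passed, and 16 of the 25 changes in the list were below 0.

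Genes that lie downstream of Edn1 and Ednra in the mandibular arch did not move one way. Of 10 measured, 2 rose and 1 fell in limma, against 3.06% higher and 4.46% lower over all genes, with a median change of -0.04. Barx1, a homeobox gene of jaw and tooth mesenchyme, read 9.60, 9.41, 9.48 and 9.82 in mutants, above each control, and rose by 0.67 (SE 0.0891, adjusted p = 0.00369 in limma). Gsc, the homeobox gene goosecoid of arch mesenchyme, read 8.84, 8.48, 8.40 and 8.41 in mutants, above each control, and rose by 0.64 (adjusted p = 0.0251 in limma). Its call was lost without control 2 (0.62), control 4 (0.54), mutant 2 (0.66) or mutant 4 (0.68). Mef2c, a transcription factor of arch crest cells and also of differentiating muscle, fell by 0.57 (adjusted p = 0.0067 in limma), beside a change of -0.68 in the mean of the skeletal muscle markers. With the mean of its probe sets it was -0.48 and did not pass. The part of muscle in that value was not tested. Dlx5, a homeobox gene induced by Edn1, differed by -0.41 with a high reading of 6.87 in mutant 1 and did not pass (adjusted p = 0.478 in limma). Hand2, which acts below Ednra to set lower jaw identity, differed by 0.03 and did not pass.

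**Figure D5:**
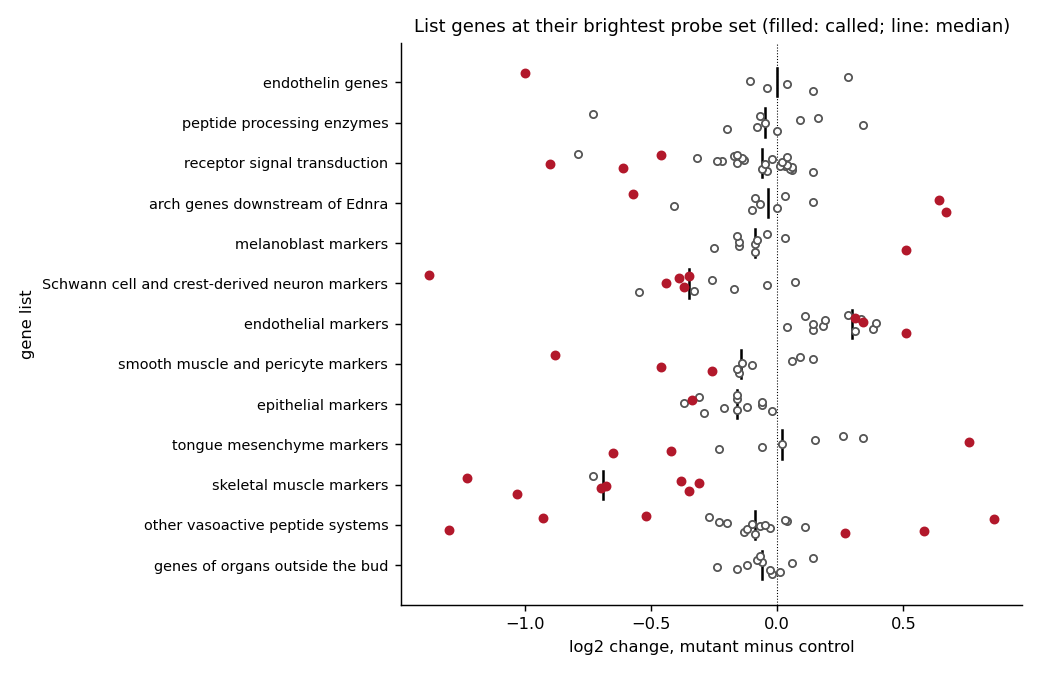
Log2 change, mutant minus control (horizontal axis), of each measured gene of 13 lists (vertical axis) at its brightest probe set; filled points were called in limma and black lines are list medians. Ednrb stands apart from the other endothelin genes at -1.00, and the skeletal muscle list has 7 of 8 genes called lower.

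Cell types that express endothelin genes moved in part on the same arrays. Over all genes 3.06% were called higher and 4.46% lower, the shares to set beside each count of markers. Of 11 Schwann cell and crest-derived neuron markers 5 fell, against that 4.46%, with a median of -0.35: Tubb3, a tubulin of neurons, by 1.38, the adhesion gene L1cam by 0.44, S100b by 0.39, Foxd3 by 0.37 and Sox10 by 0.35. Of these, Tubb3 kept its call in each fit that left out 1 array. L1cam lost it without control 2 (-0.41), control 4 (-0.42) or mutant 4 (-0.42), S100b and Sox10 in 6 of the 8 such fits and Foxd3 in 7. With the mean of a gene's probe sets L1cam was -0.22 and Sox10 -0.13, and neither passed. The S100b reading was dim, at 5.53 in mutants and 5.92 in controls. Without controls 1 and 3 together 2 of the 11 fell. The per-array mean of this list was 7.13 to 7.46 in mutants and 7.62 to 7.82 in controls.

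Of 10 melanoblast markers 1 rose, a share near the 7.51% called in either direction over all genes (3.06% higher). It was Kit, a receptor tyrosine kinase of several cell types, which rose by 0.51 and did not pass without controls 1 and 3 together (0.48) or with the mean of its probe sets (0.29). The pigment genes Tyr at -0.16 and Mlana at -0.15 and the transcription factor Mitf at -0.25 did not pass, and the list's per-array mean was 5.35 to 5.53 in mutants and 5.4 to 5.62 in controls. Tyr and Mlana averaged 3.99 and 3.79 in mutants and 4.15 and 3.94 in controls, dim readings at which a fall could not be followed.

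Endothelium, a source of Edn1 and a site of Ece1, showed 3 of 14 markers higher, against 3.06% over all genes, and 0 lower, with a median of 0.29. Cdh5, the cadherin of endothelial junctions, rose by 0.51 (0.32 with the mean of its probe sets), Pecam1 by 0.34 and Sox18 by 0.31. The call of Pecam1 was lost without mutant 2 (0.35) or mutant 4 (0.33) and that of Sox18 in 6 of the 8 fits that left out 1 array. The list's per-array mean was 8.12 to 8.38 in mutants and 7.92 to 8.03 in controls. Of 10 smooth muscle and pericyte markers 3 fell, against 4.46% over all genes: Tagln by 0.88 (lost without control 2, at -0.81), Cspg4 by 0.46 (lost in 5 of the 8 fits) and Acta2 by 0.26 (lost in 6, and with the mean of its probe sets, at -0.07). The counts without controls 1 and 3 together were 1 of 14 and 1 of 10.

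Of 12 epithelial markers 1 fell, a share near the 7.51% called in either direction over all genes (4.46% lower). All 12 changes were below 0, with a median of -0.16. Krt18 fell by 0.34, with its call lost in 6 of the 8 fits that left out 1 array. Krt8 at -0.31, Cdh1 at -0.29 and Epcam at -0.21 did not pass. Among 9 mesenchyme markers 1 rose and 2 fell, against 3.06% and 4.46% over all genes. Prrx1 rose by 0.76 while Col1a1 and Col1a2 fell by 0.65 and 0.42. The calls of Prrx1 and Col1a1 were lost in 5 and 2 of those 8 fits, for Col1a1 without control 2 (-0.66) or control 4 (-0.64). Of 8 skeletal muscle markers 7 fell (5 without controls 1 and 3 together), against 4.46% over all genes, among them the myogenic factor Myod1, which fell by 0.31 with its call gone in 7 of those 8 fits. With the mean of its probe sets Myod1 was -0.19 and did not pass. Myog fell by 0.38, the myosin Myh3 fell by 0.68, the cardiac actin Actc1 fell by 0.35, the acetylcholine receptor subunit Chrng fell by 0.70, the actin Acta1 fell by 1.03 and the troponin Tnnt3 fell by 1.23. The part of these cell types in the values of the endothelin genes was not tested.

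Other vasoactive peptide systems were read for comparison, and they moved in both directions. Of 19 measured genes, 3 rose and 3 fell in limma, against 3.06% and 4.46% over all genes. Agtr2, an angiotensin receptor of fetal mesenchyme, read 11.31, 11.40, 10.97 and 11.30 in mutants, below each control, and fell by 1.30 (SE 0.0888, adjusted p = 0.000179 in limma). Agtr1a, the other angiotensin receptor type, rose by 0.58. Ramp1 and Ramp3, partners of the calcitonin receptor-like receptor, fell by 0.93 and 0.52 (Ramp1 by 0.58 with the mean of its probe sets), and Npr3, the clearance receptor of natriuretic peptides, rose by 0.86. Adm, the ligand adrenomedullin, rose by 0.27; leaving out single arrays gave 0.22 to 0.31 and ended the call for 7 of the 8.

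The genes whose scatter across the 8 arrays most resembled that of Ednrb, with group means removed, were Ceacam14, Dclk1 and Usp2, each with a Pearson's r of 0.97 on 1437347_at. Dclk1, a microtubule-associated kinase, was lower in mutants by 0.82 (adjusted p = 0.00146 in limma), while Usp2 at -0.15 and Ceacam14 at 0.01 did not pass. The Ceacam14 reading was dim, at a mean of 2.74, below the 3.13 to 7.47 of the genes of organs outside the bud. With 18193 genes searched over 8 arrays, values of this size describe these arrays only, and the deviations of Ednrb they follow were small (SD 0.0716 in mutants and 0.0729 in controls).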

How the data were processed

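RNA of whole tongue buds was measured on 1-colour Affymetrix arrays, 4 mutant and 4 control. The deposited values are log2 expression values per probe set, made by the authors with RMA per the submitters' processing notes; neither its version nor a genome build is given in the sources used here. RMA subtracts background and aligns the arrays, which can remove shifts common to many genes. Of 45101 probe sets, the 34945 that the platform annotation gives 1 gene were fitted together in limma 3.58.1 (R 4.3.3; lmFit and eBayes, two-sided, prior degrees of freedom 3.06) with Benjamini-Hochberg adjustment and a threshold of 0.05. Genes of lists were read at the probe set with the highest mean. Within-array differences of paired members were compared by exact permutation over 70 splits (Python 3.11.15). On simulated data for 34945 probe sets with this comparison, 72 of 100 changes of 0.5 and 93 of 100 of 1 were recovered, with 9 false calls. The simulated noise was drawn independently for each probe set and array, without the variation that the real arrays share. These counts therefore hold for that setting only. The members, lists and tests were chosen with earlier results of these data known. Genes were named from every member probe set. In each list they were taken from the called genes and the 4 with the smallest p (not all of the uncalled ones are printed). Further genes (Gnaq, Gna11, Plcb1, Plcb2, Plcb3, Plcb4, Prkca, Rgs5, Hand2, Prm2, Malat1) were named after their values were seen. Some genes of the lists are not reported here. Alternatives changed the block, the normalization, the filter, the variance model, the probe set rule and the arrays. Array numbers did not pair the groups: same-number deviations correlated at -0.58 to -0.13. Interval bounds are unadjusted.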

Additional observations from a re-analysis of the deposited data

Results flagged for a closer look

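A single array stood apart from the other 3 of its group in 8 of 136 group readings of the named probe sets; chance alone gives about 1 in 20. Mutant 2 read 6.89 on Ednrb 1426314_at, against 7.01 to 7.02 on the other mutants, still below each control. Mutant 1 read 6.87 on Dlx5, against 5.69 to 5.83 on the other mutants, and control 2 read 7.07, against 6.23 to 6.32 on the other controls. On Kit, mutant 3 read 8.64 beside 8.96 to 9.0, and control 2 read 8.52 beside 8.34 to 8.37. Mutant 3 read 12.22 on Myog, beside 12.38 to 12.40, and mutant 1 read 10.22 on Nfatc4, beside 10.11 to 10.13. Control 3 read 8.05 on Pcsk6, against 8.17 to 8.19 on the other controls.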

How the results depend on the processing

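Both Ednrb calls, on 1437347_at and 1426314_at, held under every alternative in which the probe set was tested (20 and 18), with changes of -1.05 to -0.91 and -0.83 to -0.75. The number of member probe sets called was 2 with each array left out, and 3 with Malat1 as a covariate. It was 1 of 6 genes with 1 probe set a gene and 1 of 6 with the mean of a gene's probe sets, because both settings test each gene once. Ece1 1455741_a_at passed only without variance moderation (adjusted p = 0.0356 in limma, change 0.14). The sign of Edn1 turned to -0.02 with array weights and to between -0.02 and -0.01 without mutant 1 or mutant 3, and that of Ece1 1434177_at to -0.01 without mutant 3 (-0.01 to 0.17 with 1 array left out). Edn1 ran from -0.02 to 0.14 over the same fits. With the replicate number as a block, which the check of pairing did not bear out, 2 member probe sets were called, 16 of the 137 list genes (35 without the block) and 697 of all probe sets (2076 without). The count over the lists was 22 without moderation, 22 without controls 1 and 3, and 21 to 32 with 1 array left out, and that of all probe sets called was 1201 without controls 1 and 3 and 1194 to 1705 with 1 array left out. The cause was not tested. The differences between paired members kept their sign, at 1.11 to 1.38 for Edn3 minus Ednrb, -0.31 to -0.11 for Edn1 minus Edn3 and 0.07 to 0.22 for Ece1 minus Ece2. Sign flips over 4 number pairs cannot go below an exact permutation p of 0.125, nor 4 arrays against 2 below 0.0667.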
